A study of Homo sapiens with 6 samples.

Results

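The genes described here encode the liver's drug- and steroid-handling enzymes: the cytochrome P450s (CYP), the UDP-glucuronosyltransferases (UGT), the glutathione S-transferases (GST) and the cytosolic sulfotransferases (SULT). Cytochrome P450s are haem enzymes that insert oxygen into drugs, fatty acids, sterols and vitamins, and the UGT, GST and SULT enzymes couple the products, or compounds that need no oxidation, to glucuronic acid, glutathione or sulfate. The liver is their main site in the body, and cell lines derived from liver tumours are known to keep only some of them. Members were taken by symbol from the protein-coding genes of the count table, without CYP1A1, CYP1A2, CYP1B1 and CYP51A1, which gave 74 of 26389 genes, made up of 39 CYP, 12 UGT, 13 GST and 10 SULT genes.

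RNA-seq had been carried out on HepG2, a human hepatocellular carcinoma cell line that is widely used as a stand-in for hepatocytes. In the 3 shTCTP libraries the cells had received a short hairpin RNA plasmid against TCTP, the translationally controlled tumour protein, whose gene is TPT1, and the labels call their genotype a knock-down of TCTP. In the 3 shCtrl libraries the cells had received a control hairpin plasmid. Lipofectamine 2000, a lipid reagent, delivered the plasmid in both groups, and the labels mention no selection of transfected cells or of a clone. The labels name no hairpin sequence and are silent on whether the 3 libraries in each group stem from independent cultures. The p-values therefore describe scatter among these 6 libraries, and that scatter may be technical.

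The libraries held 25427614 to 30486409 reads assigned to genes. The shTCTP 3 library was the shallowest and stood apart, with a mean correlation across genes of 0.977 with the other libraries, against 0.986 to 0.987 for the rest, and a TMM scaling factor of 1.17 against 0.919 to 1.02. TPT1 had 2032, 1807 and 1559 CPM (reads scaled to library size with TMM factors) in the shTCTP libraries, against 2575, 2249 and 2290 CPM in the shCtrl libraries. The groups did not overlap, and the estimated level was 75.9% of control (log2 fold change -0.40, SE 0.17, edgeR quasi-likelihood adjusted p = 0.396). On the 6 values, a two-sided exact permutation test gave p = 0.1, the smallest that 3 against 3 allows. All 12 hepatocyte markers examined were found, with a summed level of 17883 to 23224 FPKM in shTCTP and 21246 to 24001 FPKM in shCtrl (FPKM being the deposited values scaled to gene length and library size). All 12 had a log2 fold change below 0 (median -0.34), against 50.4% of all genes tested. Of them 0 passed the edgeR threshold of an adjusted p under 0.05, against 1.41% of all genes tested. At an unadjusted p under 0.05 in edgeR, 3 were lower in shTCTP (25%, against 4.27% of all genes tested). Of 12 markers of other liver cells, 9 were in the table (not MARCO, PTPRC or STAB2), 5 of them under 1 FPKM, with sums of 52.8 to 70.2 FPKM in shTCTP and 46.6 to 62.6 FPKM in shCtrl, and 1 of the 7 tested, LYVE1, passed the edgeR threshold (log2 fold change 1.05). Most of the level in that list came from ACTA2 (mean 30.0 FPKM in shTCTP and 24.7 in shCtrl) and EPCAM (25.8 and 25.3). All libraries are of a single cell line, so these values do not measure a share of other liver cells. In bulk RNA, fewer cells expressing a gene and less RNA per cell cannot be told apart.

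By the deposited values, a narrow part of the enzyme set had a high level in HepG2. In the shCtrl libraries 10 members had a mean level of at least 10 FPKM, 11 lay between 1 and 10 FPKM, 21 between 0.1 and 1 FPKM, and 32 under 0.1 FPKM. GSTO1, an omega-class glutathione transferase that also reduces dehydroascorbate and methylated arsenic, stood at the top with a level of 224 ± 20.9 FPKM in shTCTP and 254 ± 34.3 FPKM in shCtrl (SD, n = 3 each). CYP27A1, the mitochondrial sterol hydroxylase of bile acid synthesis, followed with a level of 84.0 ± 4.4 FPKM in shTCTP and 86.7 ± 6.8 FPKM in shCtrl (SD, n = 3 each). SULT1A1, which sulfonates phenols, came next at 54.7 ± 7.3 FPKM in shTCTP and 71.9 ± 8.5 FPKM in shCtrl (SD, n = 3 each).

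The shCtrl ranges of CYP27A1 and SULT1A1 overlapped, while GSTO1 above them and GSTK1 below them, a transferase of mitochondria and peroxisomes at 45.4 FPKM in shCtrl, lay apart. Below GSTK1 followed SULT2A1 at 22.8, SULT1A2 at 22.4, CYP2W1 at 18.0, GSTM3 at 15.4, GSTZ1 at 13.2, GSTA4 at 11 and UGT2B10 at 9.98 FPKM in shCtrl. GSTK1 lay apart from SULT2A1, and from SULT2A1 to UGT2B10 each gene's range over the shCtrl libraries overlapped that of its neighbour.

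**Figure D1:**
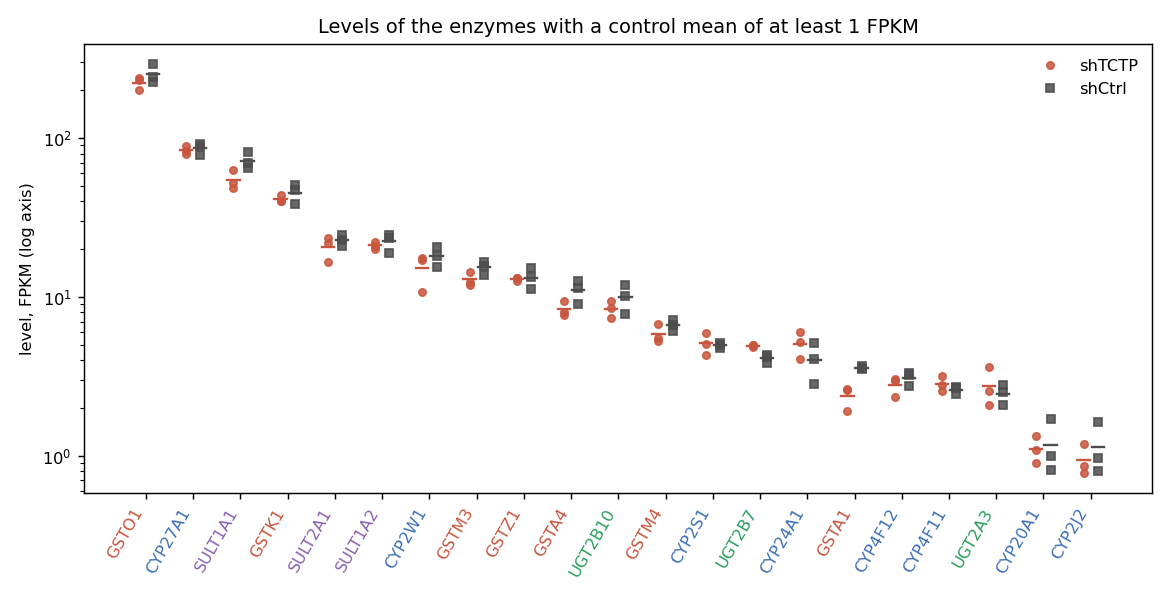
Levels of the 21 enzymes with an shCtrl mean of at least 1 FPKM. The vertical axis is the deposited level in FPKM on a log axis, each point is a library, dashes are group means, and symbols are coloured by family. Levels run from 254 FPKM for GSTO1 to about 1 FPKM for CYP2J2 in shCtrl, and for most genes the points of shTCTP (circles) and shCtrl (squares) lie within each other's range.

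The classical drug-oxidizing P450s of adult liver were close to the detection limit. CYP3A4, the main P450 of drug oxidation in human liver, had 11 reads over the 6 libraries, CYP2E1, which oxidizes ethanol, had 2, CYP2C8 had 1 and CYP2B6 had 14. CYP7A1, the rate-limiting enzyme of bile acid synthesis, had 5 reads, and CYP8B1, which acts later in that pathway, had 51. A count of 3 reads, the upper limit that a count of 0 allows, corresponds to 0.0983 to 0.108 CPM in these libraries, for counting error only.

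In all, 35 members with 1 to 51 reads over the 6 libraries fell below the filter on low counts and were left out of the main test. They were 21 of the 39 CYP genes, 8 of the 12 UGT genes, 4 of the 10 SULT genes and 2 of the 13 GST genes. Every UGT1A gene with a row in the count table was among them, as were GSTM1 with 14 reads and GSTT2B with 46. Of 106 symbols listed for these families, 32 were not among the members, such as UGT1A4, UGT1A6, UGT1A9, UGT2B17, GSTT1 and SULT1A3. The 74 members and the totals by family are therefore not whole families. The 39 members that were tested are those with enough assigned reads to pass the filter, and the counts below are not counts over all 74. Some untested members shared most of their sequence with other genes, such as SULT1A4 (98.95% of sequence windows), UGT1A3 (72.8%) and GSTT2B (68.4%). How reads were assigned is not given, so a low count in such a gene does not show a lack of expression. Other untested members, such as CYP3A4 and CYP2E1, shared 0%.

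The promoters of the alpha-class GSTs are shown because their 3 genes lie in 1 cluster on chromosome 6 and had the lowest median of the classes with 3 or more tested members; they were chosen after the values were seen. They are the 250 bases before each RefSeq start on GRCh38.p14, all on the minus strand, at chr6:52803817-52804066 for GSTA1, chr6:52763476-52763725 for GSTA2 and chr6:52995285-52995534 for GSTA4. All 3 windows reach into the GENCODE spans of these genes, whose 5′ ends lie upstream of the RefSeq starts. Capitals mark matches to the motifs searched on both strands.
GSTA1: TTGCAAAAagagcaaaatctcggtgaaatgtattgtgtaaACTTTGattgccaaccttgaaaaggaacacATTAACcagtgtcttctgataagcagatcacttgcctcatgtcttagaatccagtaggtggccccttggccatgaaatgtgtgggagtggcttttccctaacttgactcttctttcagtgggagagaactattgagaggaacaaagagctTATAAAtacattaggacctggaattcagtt
GSTA2: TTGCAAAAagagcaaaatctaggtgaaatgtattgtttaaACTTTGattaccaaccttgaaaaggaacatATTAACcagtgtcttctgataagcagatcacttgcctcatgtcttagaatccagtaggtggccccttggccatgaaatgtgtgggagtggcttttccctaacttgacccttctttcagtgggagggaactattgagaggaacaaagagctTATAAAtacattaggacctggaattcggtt
GSTA4: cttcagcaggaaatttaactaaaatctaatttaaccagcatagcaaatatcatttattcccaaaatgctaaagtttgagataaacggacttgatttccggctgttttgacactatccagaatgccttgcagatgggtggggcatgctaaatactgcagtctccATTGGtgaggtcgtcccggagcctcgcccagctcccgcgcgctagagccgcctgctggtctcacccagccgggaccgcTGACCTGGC

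The GSTA1 and GSTA2 sequences were identical at 97.2% of the 250 positions, while GSTA4 matched GSTA1 at 50.0% and GSTA2 at 50.8% in a global alignment. In GSTA1 and GSTA2 the capitals mark, in order from the 5′ end, the letters searched for a C/EBP site (TTGCNNAA), an HNF4 motif (CAAAGT, here on the other strand), an HNF1 motif (GTTAAT, here on the other strand) and a TATA box (TATAAA), beginning 250, 210, 180 and 30 bases before the start. In GSTA4 they mark a CCAAT box (CCAAT, here on the other strand) 87 bases and an antioxidant response element core (TGACNNNGC) 9 bases before the start.

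Over the 33 tested members with a promoter in the table, TATAAA was found in 21.2% (against 10.7% of all 35116 promoters), GTTAAT in 15.2% (6.23%), CAAAGT in 18.2% (10.3%) and TTGCNNAA in 15.2% (9.05%). These shares rest on 7, 5, 6 and 5 promoters, and each includes both of the near-identical GSTA1 and GSTA2. CCAAT was found in 33.3% of them (32.0% of all), TGACNNNGC in 21.2% (10.9%) and TGANTCA, the letters searched for an AP-1 site, in 6.06% (6.57%). TGACNNNGC and TGANTCA can overlap each other. These matches describe letters in a window of reference sequence.

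Among the tested members, values in shTCTP lay mostly somewhat below those in shCtrl, and no gene passed the threshold. Of 39 tested members, 0 had an adjusted p under 0.05 in edgeR, against a background of 1.41% of the 14197 genes tested (1.26% higher and 0.148% lower in shTCTP). DESeq2 and limma voom also gave 0. The smallest adjusted p in edgeR was 0.145, for SULT1A1. At an unadjusted p under 0.05, edgeR gave 7 members lower in shTCTP (17.9%, background 4.27%) and 1 higher (background 6.8%), and DESeq2 and limma voom gave 8 in either direction each. The estimate was below 0 for 29 of 39 members (74.4%, background 50.4%), with a median log2 fold change of -0.23 against -0.002 over all genes tested.

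On CPM, for 8 members (20.5%, background 7.3%) every shTCTP library lay below every shCtrl library, and for 0 every shTCTP library lay above (background 9.83%). Those 8 were CYP3A5, GSTA1, GSTA4, GSTM2, GSTM4, GSTO2, SULT1A1 and SULT1C2, of which SULT1C2 passed the filter on low counts only through shCtrl. On the deposited FPKM, which carry no TMM scaling, this held for 4 members (10.3%, against 3.41% of all genes tested), CYP3A5, GSTA1, GSTM2 and SULT1A1, while GSTA4, GSTM4 and GSTO2 overlapped and SULT1C2 tied. On FPKM every shTCTP library lay above every shCtrl library for 2 members, CYP11A1 and UGT2B7 (5.13%, against 12.8% of all genes tested). The separations described below are on CPM. The shTCTP 3 library gave the lowest of the 6 values for 13 of the 39 members, the most of any library, and without it the median over the members was -0.14. With limma on log2 FPKM and pseudocounts of 1 and 0.1 that median was -0.07 and -0.12, against 0.06 and 0.09 over all genes fitted. Together the 74 members took 0.106%, 0.113% and 0.110% of the reads in the shTCTP libraries, against 0.116%, 0.132% and 0.119% in the shCtrl libraries. By family, only the SULT share lay apart, at 0.0229% to 0.0260% in shTCTP and 0.0285% to 0.0325% in shCtrl. SULT1A1 alone held 4088, 5165 and 3660 of the 6996, 7741 and 6289 SULT reads in shTCTP. In shCtrl it held 5731, 6748 and 5417 of 8660, 9807 and 8662. The SULT share thus rests mostly on SULT1A1, described below, and is not a separate result. The shares of the GST, CYP and UGT genes overlapped between the groups.

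**Figure D2:**
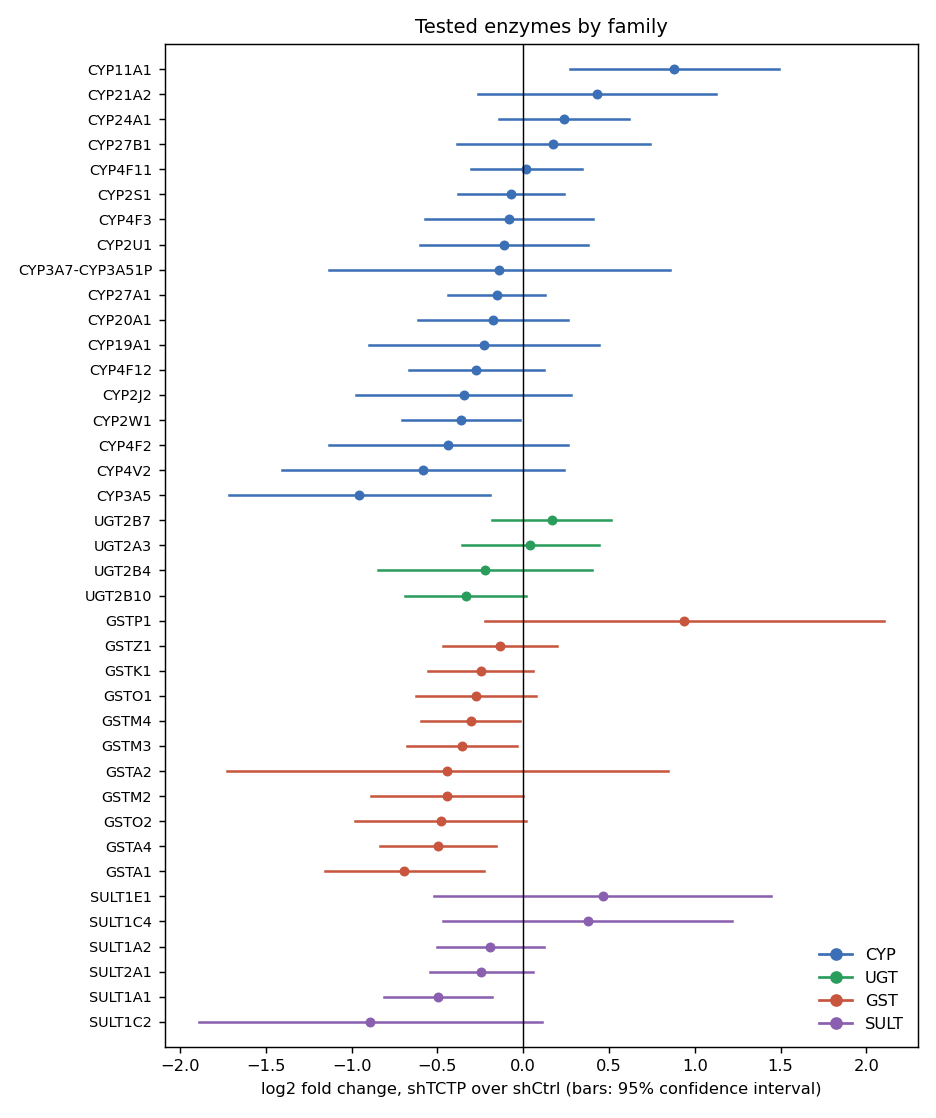
Log2 fold change of each of the 39 tested enzymes, shTCTP over shCtrl, from edgeR, with 95% confidence intervals as bars and families in colour. Most points lie left of 0, with 10 of 11 GST genes there, and CYP11A1 and GSTP1 lie farthest to the right at 0.88 and 0.94.

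Among the 4 families, the glutathione transferases had the lowest median. Of the 11 tested GST genes, 10 had an estimate below 0 (90.9%, background 50.4%), with a family median of -0.36. All shTCTP libraries lay below all shCtrl libraries for 5 of them on CPM (45.5%, background 7.3%) and for 2 on FPKM (18.2%, background 3.41%). In edgeR, DESeq2 and limma voom 0 passed the threshold and 4 had an unadjusted p under 0.05 (36.4%, all 4 lower in edgeR, background 4.27%). That count ran from 3 to 7 in edgeR over leaving out single libraries, with 7 without the shCtrl 1 library. The median was -0.25 without the shTCTP 3 library and -0.44 without the shCtrl 1 library, and on those log2 FPKM scales it was -0.15 and -0.21. The shCtrl 2 library held the highest of the 6 values for 7 of the 11 genes.

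GSTA1 (ENSG00000243955.5, chr6:52791664-52803910, minus strand, GRCh38), the main alpha-class transferase of hepatocytes, had 2.88, 2.05 and 2.40 CPM in shTCTP, against 3.74, 4.06 and 4.06 CPM in shCtrl. All 3 shTCTP values lay below all 3 shCtrl values, and the log2 fold change was -0.69 (SE 0.22, edgeR adjusted p = 0.171), which is 0.619 of the control level. GSTA1 shared 6.90% of its 150-base windows with GSTA2, so some reads could belong to either gene, and the sum of both gave -0.67 (edgeR adjusted p = 0.186). GSTA2 alone was low, with 0.411, 0.404 and 0.101 CPM in shTCTP, against 0.295, 0.173 and 0.790 CPM in shCtrl, and the groups overlapped (log2 fold change -0.44, SE 0.61, edgeR adjusted p = 0.847). Without the shCtrl 3 library the GSTA2 estimate was 0.37, so its direction rests on that library.

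GSTA4 (ENSG00000170899.10, chr6:52977948-52995378, minus strand), which conjugates aldehydes formed by lipid peroxidation, had 10.0, 9.18 and 9.66 CPM in shTCTP, against 14.7, 14.3 and 11.8 CPM in shCtrl. The groups did not overlap and the shTCTP values were close together (log2 fold change -0.50, SE 0.16, edgeR adjusted p = 0.177). No 150-base window of GSTA4 was shared with another gene.

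The mu-class genes form a cluster on chromosome 1. GSTM3 (ENSG00000134202.10, chr1:109733932-109741038, minus strand), the member of the class with the highest level here, had 65.7, 52.4 and 47.0 CPM in shTCTP, against 59.7, 76.3 and 75.5 CPM in shCtrl. The shTCTP 1 library exceeded the shCtrl 1 library, so the groups overlapped (log2 fold change -0.36, SE 0.15, edgeR adjusted p = 0.383). GSTM4 (ENSG00000168765.15, chr1:109656081-109674836, plus strand) had 27.7, 27.9 and 29.2 CPM in shTCTP, against 30.3, 37.9 and 36.6 CPM in shCtrl. GSTM2 (ENSG00000213366.12, chr1:109668022-109709551, plus strand) had 2.88, 3.06 and 2.97 CPM in shTCTP, against 3.54, 3.92 and 4.67 CPM in shCtrl.

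For GSTM4 and GSTM2 the shTCTP libraries lay close together and below every shCtrl library, with estimates of -0.31 (SE 0.14, edgeR adjusted p = 0.409) and -0.44 (SE 0.21, edgeR adjusted p = 0.451). Their annotated spans overlap on the same strand, and GSTM2 shared 9.83% of its windows with GSTM1. The sum of GSTM1, GSTM2 and GSTM4 gave -0.32 (edgeR adjusted p = 0.376).

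The omega-class GSTO1 had 332, 326 and 234 CPM in shTCTP, against 301, 416 and 362 CPM in shCtrl, and the groups overlapped (log2 fold change -0.28, SE 0.16, edgeR adjusted p = 0.576). Its neighbour GSTO2 had 2.40, 2.05 and 2.23 CPM in shTCTP, against 2.79, 3.85 and 2.69 CPM in shCtrl. The GSTO2 groups did not overlap (log2 fold change -0.48, SE 0.23, edgeR adjusted p = 0.467). GSTK1 had 53.6, 51.4 and 47.9 CPM in shTCTP, against 48.4, 67.9 and 65.3 CPM in shCtrl, and GSTZ1, an isomerase of tyrosine breakdown, had 25.4, 23.6 and 20.8 CPM in shTCTP, against 20.4, 29.5 and 26.9 CPM in shCtrl. The shCtrl 1 library lay within the shTCTP values for GSTK1 and below them for GSTZ1, and the estimates were -0.25 for GSTK1 and -0.14 for GSTZ1 on the log2 scale.

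GSTP1, the pi-class transferase, which is low in hepatocytes, was singled out after its values were seen. It had 0.445, 0.538 and 2.06 CPM in shTCTP, against 0.426, 0.867 and 0.287 CPM in shCtrl. The shTCTP 3 library alone was high (log2 fold change 0.94, SE 0.55, edgeR adjusted p = 0.563), and without it the estimate was -0.09.

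**Figure D3:**
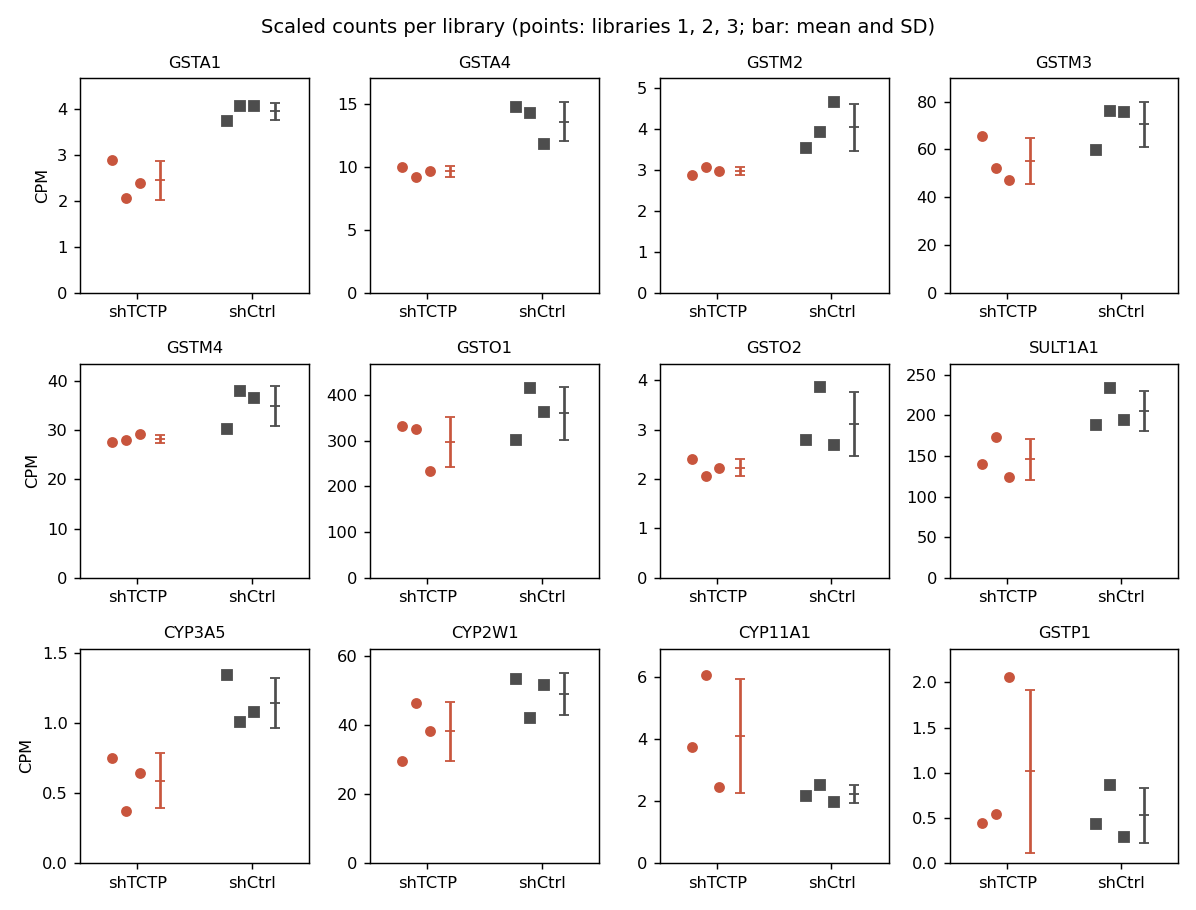
Scaled counts of 12 enzymes in every library. The vertical axis of each panel is CPM and starts at 0, points are libraries 1, 2 and 3 from left to right within shTCTP (circles) and shCtrl (squares), and bars are the mean and SD of the group (n = 3). GSTA1, GSTA4, GSTM2, GSTM4, GSTO2, SULT1A1 and CYP3A5 show no overlap of the groups on this scale, and in GSTP1 the mean of shTCTP rests on library 3.

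Among the sulfotransferases, 0 of 6 tested genes passed the threshold in edgeR, DESeq2 or limma voom. In each of them 1 gene had an unadjusted p under 0.05 (16.7%, lower in edgeR, background 4.27%). The estimate was below 0 for 4 genes (66.7%, background 50.4%), with a median log2 fold change of -0.22 (-0.08 and -0.11 on log2 FPKM). SULT1A1 (ENSG00000196502.11, chr16:28605196-28623625, minus strand) had 140, 174 and 124 CPM in shTCTP, against 188, 234 and 194 CPM in shCtrl. Every shTCTP library lay below every shCtrl library, and the estimate was 0.710 of the control level (log2 fold change -0.50, SE 0.15, edgeR adjusted p = 0.145). Its adjusted p in DESeq2 was 0.0627, and over leaving out single libraries the edgeR estimate ran from -0.65 to -0.38.

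SULT1A2, a neighbouring gene of the same subfamily, had 49.9, 50.1 and 45.5 CPM in shTCTP, against 43.8, 58.8 and 63.8 CPM in shCtrl. Here the groups overlapped (log2 fold change -0.19, SE 0.15, edgeR adjusted p = 0.686). SULT1A1 shared 3.32% of its windows with other SULT1A transcripts, and the sum over SULT1A1, SULT1A2 and SULT1A4 gave -0.43 (edgeR adjusted p = 0.224).

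SULT2A1, which sulfonates dehydroepiandrosterone and bile acids, had 47.6, 34.6 and 41.7 CPM in shTCTP, against 50.3, 45.3 and 51.2 CPM in shCtrl. The shTCTP 1 library lay inside the shCtrl range (log2 fold change -0.25, SE 0.14, edgeR adjusted p = 0.553). The remaining tested sulfotransferases, SULT1C2, SULT1C4 and SULT1E1, the oestrogen sulfotransferase, were all under 1 CPM, with estimates of -0.89, 0.38 and 0.46 on the log2 scale. SULT1C2 was the one of them with separated groups, at 0.169 to 0.411 CPM in shTCTP and 0.416 to 0.721 CPM in shCtrl. It had 12, 9 and 5 reads in shTCTP, against 22, 12 and 14 in shCtrl. SULT1C2 thus passed the filter on low counts only through shCtrl, where it was higher, and its separation carries no weight.

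Of the 18 tested P450 genes, 13 had an estimate below 0 (72.2%, background 50.4%), with a median log2 fold change of -0.15. The median was -0.09 without the shCtrl 1 library, -0.10 without shTCTP 3 and -0.02 and -0.03 on log2 FPKM with pseudocounts of 1 and 0.1. In edgeR, DESeq2 and limma voom 0 passed the threshold and 3 had an unadjusted p under 0.05 (16.7%, background 11.1% in edgeR in either direction). This count ran from 1, without shTCTP 2, to 4, without shTCTP 3, in edgeR. In the drug-oxidizing group 2 of 10 genes were tested. CYP3A5 (ENSG00000106258.13, chr7:99648194-99680026, minus strand), a liver and gut P450 related to CYP3A4, had 0.754, 0.370 and 0.642 CPM in shTCTP, against 1.34, 1.01 and 1.08 CPM in shCtrl. The groups did not overlap, with a level 0.516 of control (log2 fold change -0.96, SE 0.36, edgeR adjusted p = 0.290), the lowest estimate of the 39 tested members.

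The other tested gene of that group, CYP3A7-CYP3A51P, is a readthrough of CYP3A7, the form of fetal liver, and shared 92.4% of its windows with it, so reads could fall to either. It had 0.582, 0.370 and 0.236 CPM in shTCTP, against 0.459, 0.312 and 0.538 CPM in shCtrl, and the groups overlapped. Its estimate was -0.14, with 0.13 without shTCTP 3 and 0.03 without shCtrl 3. Summing the 5 counted CYP3A genes gave 1.58, 0.975 and 0.878 CPM in shTCTP, against 2.07, 1.46 and 2.33 CPM in shCtrl. In the sum the shTCTP 1 library lay inside the shCtrl range, and the log2 fold change was -0.77 (SE 0.31, edgeR adjusted p = 0.339).

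The P450s of fatty acid and eicosanoid oxidation had 8 of 10 genes tested, 7 of them with an estimate below 0 (87.5%, background 50.4%). Their median log2 fold change was -0.19, with 0 at an unadjusted p under 0.05 in edgeR. CYP2S1, a P450 best known outside the liver, had 13.1, 14.8 and 14.8 CPM in shTCTP, against 14.7, 15.1 and 15 CPM in shCtrl (log2 fold change -0.07, 95% interval -0.38 to 0.24). CYP4F11, which hydroxylates fatty acids and vitamin K, had 11.2, 11.7 and 11.5 CPM in shTCTP, against 11.2, 10.7 and 12.2 CPM in shCtrl (log2 fold change 0.02, 95% interval -0.31 to 0.34). Libraries of both genes overlapped, and both estimates turned under some settings (CYP2S1 on FPKM, CYP4F11 with a length correction and without shTCTP 2 or shCtrl 2).

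CYP4F12, another fatty acid hydroxylase of that cluster on chromosome 19, had 5.31, 6.49 and 5.71 CPM in shTCTP, against 5.90, 7.60 and 7.68 CPM in shCtrl, and the groups overlapped (log2 fold change -0.27, SE 0.19, edgeR adjusted p = 0.634). CYP4V2, a fatty acid hydroxylase whose loss causes a crystalline retinal dystrophy, had 1.20, 0.874 and 0.338 CPM in shTCTP, against 1.15, 1.11 and 1.36 CPM in shCtrl. The shTCTP 3 library was the low one, and the estimate was -0.58 (SE 0.39, edgeR adjusted p = 0.623). The 5 counted CYP4F genes summed gave -0.10 (edgeR adjusted p = 0.840).

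CYP27A1 was the one tested gene of the 6 that act in bile acid synthesis and cholesterol breakdown. It had 199, 200 and 182 CPM in shTCTP, against 185, 228 and 233 CPM in shCtrl. The shCtrl 1 library lay within the shTCTP values (log2 fold change -0.16, 95% interval -0.44 to 0.13, edgeR adjusted p = 0.733).

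The P450s of steroid hormone synthesis were a group of 5 with 3 tested, and they held the one member with an unadjusted p under 0.05 and a higher value in shTCTP. CYP11A1 (ENSG00000140459.17, chr15:74337759-74367740, minus strand), the side-chain cleavage enzyme that starts steroid synthesis from cholesterol, had 3.73, 6.09 and 2.47 CPM in shTCTP, against 2.16, 2.53 and 1.97 CPM in shCtrl. The shTCTP 2 library was the highest, and the shTCTP 3 library lay just below the shCtrl 2 library, so the groups overlapped. The level was 1.84 times control (log2 fold change 0.88, SE 0.29), with an edgeR adjusted p of 0.195.

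Without the shTCTP 3 library the estimate for CYP11A1 was 1.15 with an edgeR adjusted p of 0.000504, and with no filter on low counts it was 0.87 with an adjusted p of 0.0431. Without the shTCTP 2 library it was 0.47 with an edgeR adjusted p of 0.581. CYP21A2, a hydroxylase of the adrenal cortex, had 1.13, 2.05 and 1.38 CPM in shTCTP, against 1.54, 0.902 and 0.933 CPM in shCtrl, with overlap and an estimate of 0.43 (SE 0.33, edgeR adjusted p = 0.686). It shared 17.2% of its windows with its pseudogene CYP21A1P, so its reads are uncertain. CYP19A1, the aromatase that makes oestrogens, had 1.1, 1.38 and 0.810 CPM in shTCTP, against 1.41, 1.01 and 1.44 CPM in shCtrl, with an estimate of -0.23 (SE 0.32, edgeR adjusted p = 0.847). The groups overlapped in this gene too.

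Of the vitamin D and retinoic acid P450s 2 of 5 were tested. CYP24A1, which breaks vitamin D down, had 15.7, 19.3 and 19.0 CPM in shTCTP, against 18.8, 15.6 and 11.3 CPM in shCtrl (log2 fold change 0.24, SE 0.18, edgeR adjusted p = 0.686). CYP27B1, which activates vitamin D, had 2.77, 1.88 and 1.69 CPM in shTCTP, against 1.64, 2.08 and 1.90 CPM in shCtrl (log2 fold change 0.17, SE 0.27, edgeR adjusted p = 0.864). Both pairs of groups overlapped, and the CYP27B1 estimate was -0.07 without shTCTP 1.

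Of the P450s without an assigned role, CYP2W1 (ENSG00000073067.13, chr7:983199-989640, plus strand), known from fetal gut and some tumours, had 29.6, 46.5 and 38.3 CPM in shTCTP, against 53.5, 42.2 and 51.8 CPM in shCtrl. The shTCTP 2 library exceeded the shCtrl 2 library (log2 fold change -0.37, SE 0.16, edgeR adjusted p = 0.408). CYP20A1, whose substrates are not known, had 10.7, 12.6 and 13.1 CPM in shTCTP, against 19.2, 11.8 and 10.1 CPM in shCtrl. The shCtrl 1 library stood above the rest there, and the estimate was -0.18 (SE 0.21, edgeR adjusted p = 0.820) with it and 0.14 without it.

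The glucuronosyltransferases had 4 of 12 genes tested, all of the UGT2 branch on chromosome 4, with 2 estimates below 0, a median log2 fold change of -0.09 (0.04 without shTCTP 2) and 0 at an unadjusted p under 0.05 in edgeR, DESeq2 or limma voom. UGT2B10, which glucuronidates amines, had 19.7, 14.8 and 14.8 CPM in shTCTP, against 23.6, 21.4 and 17.2 CPM in shCtrl, and the groups overlapped through the shTCTP 1 library (log2 fold change -0.34, SE 0.17, edgeR adjusted p = 0.476). UGT2B7, which takes morphine and steroids, had 10.3, 9.55 and 8.44 CPM in shTCTP, against 8.33, 8.6 and 8.25 CPM in shCtrl. Its shTCTP values leaned higher, with overlap on CPM, but not on FPKM, in the shTCTP 3 library (log2 fold change 0.17, SE 0.16, edgeR adjusted p = 0.775).

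UGT2A3, which acts on bile acids, had 8.29, 6.49 and 9.59 CPM in shTCTP, against 7.67, 9.02 and 7.0 CPM in shCtrl (log2 fold change 0.04, 95% interval -0.36 to 0.44). Its libraries overlapped, and the estimate was -0.09 without shTCTP 3 and -0.04 without shCtrl 3. UGT2B4 lay lower, at 1.04 to 1.75 CPM in shTCTP and 1.33 to 1.97 CPM in shCtrl, with an estimate of -0.22.

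The UGT1A genes, which use alternative first exons and share the rest of the transcript, could not be separated: UGT1A1, UGT1A3, UGT1A8 and UGT1A10 shared 32.2% to 72.8% of their windows with other UGT1A transcripts. UGT1A1 conjugates bilirubin. Their sum was 0.685, 0.807 and 0.405 CPM in shTCTP, against 0.164, 0.382 and 0.395 CPM in shCtrl, from 5 to 24 reads a library. All 3 shTCTP values lay above all 3 shCtrl values, with the shTCTP 3 library close to the shCtrl range, and the log2 fold change was 1.01 (SE 0.47, edgeR adjusted p = 0.437). The reads were 20, 24 and 12 in shTCTP, against 5, 11 and 11 in shCtrl. All 3 shTCTP libraries met the filter on low counts, while shCtrl 1 did not. The filter thus favoured a sum that was higher in shTCTP, and the separation carries no weight.

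**Figure D4:**
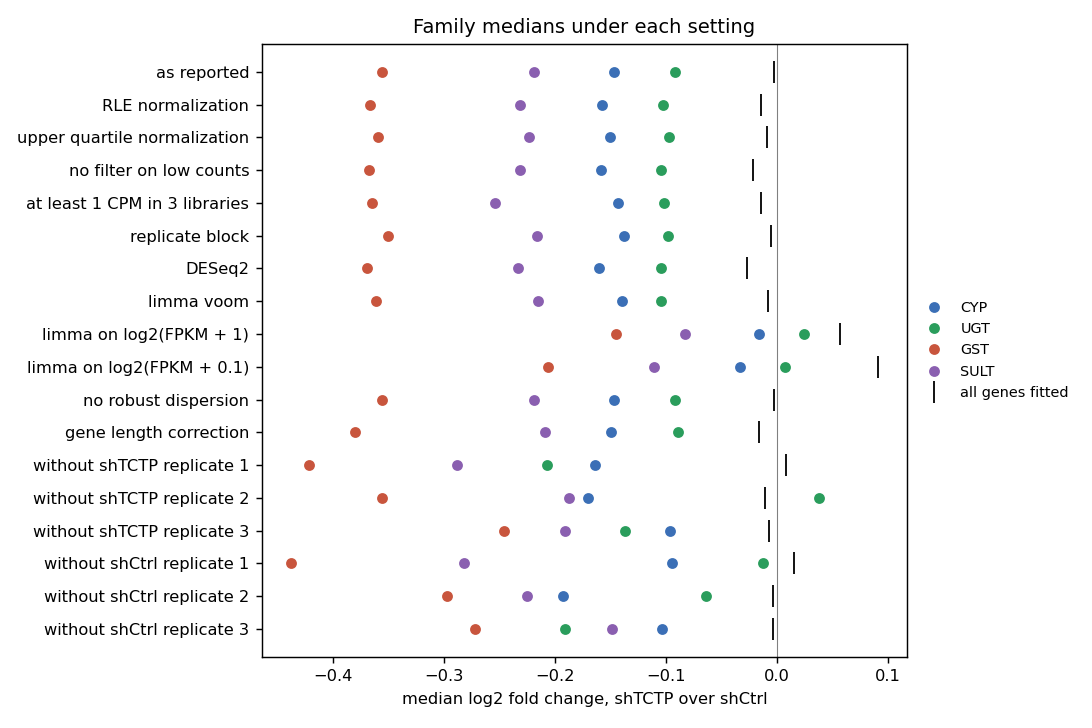
Median log2 fold change of each family, shTCTP over shCtrl, as reported and under each alternative setting. Rows are settings, coloured points are the medians over the tested members of each family, and black ticks are the median over all genes fitted. The GST medians stay left of the all-gene median in every row, between -0.44 and -0.15, while the UGT medians lie on both sides of 0.

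The genes that serve these enzymes were read beside them. P450s need electrons and haem: 7 tested electron donors all had estimates below 0 (median -0.10, background 50.4% below 0), and 12 genes of haem synthesis and breakdown had a median of -0.14. In both lists 0 genes passed the threshold and 0 had an unadjusted p under 0.05 in edgeR, DESeq2 or limma voom. POR, the reductase that feeds microsomal P450s, had 273, 271 and 257 CPM in shTCTP, against 248, 288 and 281 CPM in shCtrl, an estimate of -0.03; it was picked after its values were seen. FDXR, the reductase of mitochondrial P450s, had an estimate of -0.23 (SE 0.14, edgeR adjusted p = 0.577), CYB5R3 of -0.19, and the haem synthesis enzymes PPOX and CPOX of -0.32 and -0.24.

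Of the genes that supply UDP-glucuronic acid, the sulfate donor and glutathione, 15 were tested, with a median of -0.18. The estimate was below 0 for 10 (66.7%, background 50.4%) and above 0 for 5. In edgeR, DESeq2 and limma voom 0 passed the threshold and 4 had an unadjusted p under 0.05. In edgeR all 4 were lower in shTCTP (26.7%, background 4.27%). SLC26A1, a sulfate transporter, had 11.4, 15.8 and 15 CPM in shTCTP, against 19.2, 17.4 and 21.4 CPM in shCtrl, and no library overlapped (log2 fold change -0.46, SE 0.16, edgeR adjusted p = 0.250). UGP2, which makes UDP-glucose, had 17.6, 14.4 and 15.2 CPM in shTCTP, against 26.6, 22.1 and 16.4 CPM in shCtrl, with overlap through the shCtrl 3 library (log2 fold change -0.47, SE 0.17, edgeR adjusted p = 0.288). The subunits of the rate-limiting enzyme of glutathione synthesis, chosen after their values were seen, had estimates above 0, at 0.43 for GCLM (SE 0.20, edgeR adjusted p = 0.453) and 0.28 for GCLC (SE 0.15, edgeR adjusted p = 0.503). Both overlapped between groups, with the shTCTP 3 library highest.

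Among other enzymes of drug oxidation, hydrolysis and conjugation, 25 were tested, with a median of -0.11. The threshold was passed by 0 of them in edgeR, DESeq2 and limma voom. An unadjusted p under 0.05 was found for 3 in edgeR, all 3 lower in shTCTP (12%, background 4.27%), 4 in DESeq2 and 3 in limma voom. FMO5, a flavin monooxygenase, had 9.32, 6.86 and 9.49 CPM in shTCTP, against 12.8, 13.7 and 11.5 CPM in shCtrl. All shTCTP values lay below all shCtrl values (log2 fold change -0.57, SE 0.17, edgeR adjusted p = 0.154), and without the shTCTP 3 library the edgeR adjusted p was 0.0392. EPHX2, the soluble epoxide hydrolase, had 9.32, 9.82 and 8.61 CPM in shTCTP, against 11.2, 14.4 and 13.1 CPM in shCtrl, again with no overlap (log2 fold change -0.48, SE 0.16, edgeR adjusted p = 0.220).

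Of 25 receptors and transcription factors that control these enzymes in liver, 23 were tested, with a median of -0.16, and 0 passed the threshold or had an unadjusted p under 0.05 in edgeR, DESeq2 or limma voom. FOXA3, a liver forkhead factor, had 107, 112 and 95.1 CPM in shTCTP, against 72.0, 92.2 and 96.5 CPM in shCtrl (log2 fold change 0.27, SE 0.14, edgeR adjusted p = 0.494), and FOXA2 had an estimate of 0.25 (edgeR adjusted p = 0.537). For both factors the estimate was above 0 while most of the list lay below it. The hepatocyte markers given above had a median of -0.34, close to that of the GST genes, and whether a general difference in hepatocyte transcripts or the state of the shTCTP 3 library has a part in the values of these enzymes was not tested.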

How the data were processed

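Messenger RNA was sequenced from 6 HepG2 libraries, 3 shTCTP and 3 shCtrl. Per the labels' protocols, the directional libraries were made from polyadenylated RNA and read as 150-base pairs, while a harvest at 48 h is stated for quantitative PCR alone. The tools bcl2fastq, TopHat2 and edgeR and the build GRCh38 are named, per the submitters' processing notes. Not given in the sources used here are the read assignment, the annotation and the use of strand. The authors deposited raw read counts and FPKM values per gene. FPKM values served for levels between genes and counts for all tests.

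Counts were tested with edgeR 4.0.16 in R 4.3.3 (quasi-likelihood, filterByExpr, TMM, robust dispersion, group as the only term), with Benjamini-Hochberg adjustment over all 14197 genes tested. CPM values are scaled by TMM. A filter of this kind keeps members that are high in 1 group. Alternatives were other normalizations and filters, a replicate block, DESeq2 1.42.0, limma 3.58.1 (voom, and log2 of FPKM plus 1 or 0.1), no robust dispersion, a gene length correction, summed copies and each library left out. In simulated data for this comparison (14011 genes tested), the share of true changes found by edgeR was 28.8% at 1.5-fold (66 genes), 69.8% at 2-fold (63 genes) and 98.4% at 4-fold (62 genes), with 6.77% of 133 calls false.

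Members, lists and the naming rule were chosen with earlier results of these data known. The rule named from each role list the 3 tested members of highest mean FPKM and the one of smallest p, the 2 genes of smallest p in each list of partner genes, and TPT1. Other genes with values were chosen after these were seen. The rule left out 4 protein-coding genes and 23 rows of other biotypes. Coordinates and shared 150-base windows come from GENCODE release 29, where all 74 members were found, and promoters from RefSeq (57 of 74 members matched). Libraries of a group differed by more than sampling noise.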

Additional observations from a re-analysis of the deposited data

How the results depend on the processing

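Over 18 alternatives, 661 of 678 values of the 39 tested members kept their direction and their side of the threshold. CYP11A1 passed the threshold with no filter on low counts (log2 fold change 0.87) and without the shTCTP 3 library (1.15), which gave 1 member, 1 P450 and 1 steroid synthesis gene past it. Over leaving out single libraries, these counts ran from 0 to 1, as did that of the other drug-metabolizing enzymes (FMO5, -0.64, without the shTCTP 3 library). Members at an unadjusted p under 0.05 ran from 5 to 12, GST genes from 3 to 7 and P450 genes from 1 to 4. Over all genes, calls numbered 200 as reported, 317 with no filter and 79 to 343 over leaving out single libraries.

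The direction turned for 9 members, none of them past the threshold, and the cause was not tested. Over leaving out single libraries, the log2 fold change ran from -0.36 to 0.14 for CYP20A1, -0.070 to 0.32 for CYP27B1, -0.52 to 0.13 for CYP3A7-CYP3A51P, -0.025 to 0.068 for CYP4F11, -0.81 to 0.37 for GSTA2, -0.086 to 0.17 for UGT2A3 and -0.090 to 1.49 for GSTP1. Limma on log2(FPKM + 1) and log2(FPKM + 0.1) gave 0.028 and 0.031 for CYP2S1 and 0.0093 and 0.021 for CYP4F3, and the length correction gave -0.0049 for CYP4F11.

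On those FPKM scales, which are not scaled by TMM and shrink low genes, the median over the members was -0.07 and -0.12, that of the P450s -0.02 and -0.03, of the GSTs -0.15 and -0.21, and of the SULTs -0.08 and -0.11, while the all-gene median was 0.06 and 0.09. Leaving out single libraries gave medians of -0.24 to -0.14 over the members, -0.19 to -0.09 for P450s, -0.44 to -0.25 for GSTs, -0.29 to -0.15 for SULTs and -0.21 to 0.04 for UGTs.

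Libraries of the same number did not deviate together (correlations -0.23 to 0.0015, and 0 of 3 best with their own number), so the numbers were not taken as pairs. With the replicate number as a block, 130 genes passed in all, and 0 members passed, with 5 at an unadjusted p under 0.05. The filter left out 35 members with 1 to 51 reads in all. With no filter all 74 were tested, with 13 at an unadjusted p under 0.05. Groups did not overlap on deposited FPKM, a setting chosen after seeing the data, for 4 members lower and 2 higher in shTCTP, against 8 and 0 on CPM. Changes of 1.5-fold were mostly not found in the simulation, which covered genes of all levels kept by the filter rather than these members.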
